A study of Xenopus laevis with 30 samples.

Results

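DNA repair and checkpoint genes were followed through the development of the clawed frog Xenopus laevis, from the cleaving egg to the feeding tadpole. They were taken from the array by gene name alone: a probe set (a group of short probes to 1 transcript) belonged when its single platform symbol carried a repair family name (rad, brca, xrcc, msh, mlh, pms, ercc, parp, chek or apex followed by a digit, or fanc) or was one of atm, atr, xpa, xpc, ung, ogg1, exo1, blm, wrn, mre11, nbn, topbp1 and clspn. This gave 76 probe sets of 58 genes, of 32539 probe sets tested and 15495 with 1 symbol. The series holds 30 Affymetrix arrays, 2 biological replicates at each of 15 stages, from total RNA of pooled whole wild-type embryos of mixed sex with no treatment. The stages were 2 and 5 (cleavage), 9 (late blastula), 11 (gastrula), 13, 17 and 19 (neurula), 21, 23, 26, 28 and 31 (tailbud), 37-38 (hatched embryo), and 43 and 48 (tadpole). The parents of the pools are not given in the sources used here.

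Cells repair DNA by several routes. Damaged bases are cut out one at a time (base excision), bulky lesions are removed as a short stretch (nucleotide excision), copying errors are corrected after replication (mismatch repair), and broken ends are either copied from the sister molecule (homologous recombination) or rejoined directly (end joining). The checkpoint kinases Atr and Chk1 slow the cell cycle when replication forks stall. Xenopus eggs are a classic source of these proteins: the embryo first cleaves rapidly on maternal RNA and protein with little checkpoint control, and the cycle lengthens and zygotic transcription starts at the mid-blastula transition, before stage 9. X. laevis carries L and S copies of many genes from an ancient genome duplication, and 55 of the probe sets were annotated to an L copy, 20 to an S copy and 1 to neither.

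Values are signals in arbitrary units, with every array scaled to a trimmed mean of 500. Array medians lay between 105.6 and 184.1, replicate arrays correlated at 0.963 to 0.973 over all probe sets, and 30 of 30 arrays were closest to their own replicate. A change is called when the adjusted p of limma over all 32539 probe sets is under 0.05, and a fold is written "at least" where the dimmer stage lay under the array median, which then takes its place as a chosen floor. Changes are relative to the rest of the RNA on the array. The added poly-A control RNA gave a geometric mean signal of 472.2 at stage 2, 458.1 at stage 13, 200.1 at stage 31 and 148.2 at stage 48, and scaling the arrays to it moved the median log2 change of all probe sets by 0.03 for stage 9 against 2, 0.01 for 13 against 9, 1.20 for 31 against 13, 0.43 for 48 against 31 and 1.67 for 48 against 2. Where the direction of a called change printed below turns under that scaling, this is said beside it. The control signal also differed between replicate arrays, most at stage 21. That adds spread, so a call can be lost against the controls although its log2 change hardly moves. Whether the controls were added per amount of RNA is not stated. Stages 26 and 28 stood apart from their neighbours: 96 probe sets were above the array median on all 4 of their arrays and under it on all 4 arrays of stages 23 and 31, and 81 showed the reverse, while the other 11 windows of 4 consecutive stages gave 7 to 77. The 5 comparisons of single stages leave those stages out.

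With the arrays scaled as deposited, repair and checkpoint genes were most often high in the cleaving embryo and most often lowest in the tadpole. At stage 2, 52 of 76 members (68.4%) were above the array median on both arrays, and at stage 5, 54 (71.1%). The number was 43 (56.6%) at stage 13, 41 (53.9%) at stage 31 and 30 (39.5%) at stage 48. Among all probe sets with 1 symbol this share stayed between 59.1% and 60.4% at all 15 stages. The threshold is each array's own median, so the share of so large a set can hardly move. That median rose from 107.3 at stage 2 to 183.3 at stage 48. The median member signal was 353.3 at stage 2, 180.6 at stage 13, 214.6 at stage 31 and 147.8 at stage 48. For probe sets with 1 symbol it was 251.2, 232.6, 300.6 and 294.3. Members had their highest stage at 2 or 5 in 32 cases (42.1%, against 21.4% of all probe sets) and their lowest stage at 48 in 29 cases (38.2%, against 17.6%). Those highest and lowest stages were taken under the deposited scaling only. Against the poly-A controls the median log2 change of the members at stage 48 against stage 2 was 0.83, and as deposited -0.85. For all probe sets it was 1.96 and 0.28.

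**Figure D1:**
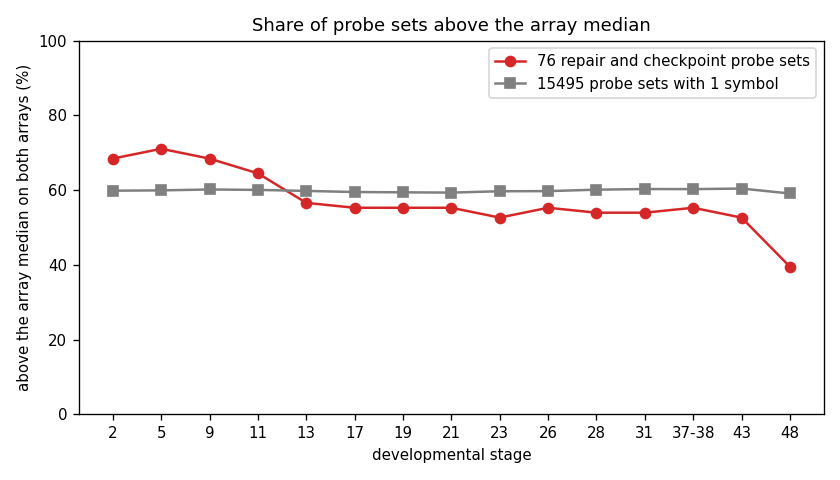
Percentage of probe sets above the array median on both arrays (vertical axis) at each of 15 stages (horizontal axis), for the 76 repair and checkpoint probe sets and for the 15495 probe sets with 1 symbol. The repair and checkpoint share is highest at stage 5 (71.1%) and lowest at stage 48 (39.5%). The grey line stays between 59.1% and 60.4%, and can hardly move because the threshold is each array's own median.

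Over the 15 stages 71 of 76 members changed by the F test, beside 89.6% of all probe sets tested. The 5 that did not pass were atm.L, fancc.L, fancl.L, fancd2os.L and rad9b.L, none of them above the array median on both arrays of any stage. Altogether 15 members never exceeded the array median on both arrays of any stage. Besides those 5 they were fancd2.L, ogg1.L, mlh3.L, rad1.L, parp11.L, parp14 and 1 of several probe sets each of xrcc1.L, rad52.S, exo1.S and ercc3.L. A dim probe set does not show that the transcript is missing. At the other end, 23 members were above the median at all 15 stages.

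**Figure D2:**
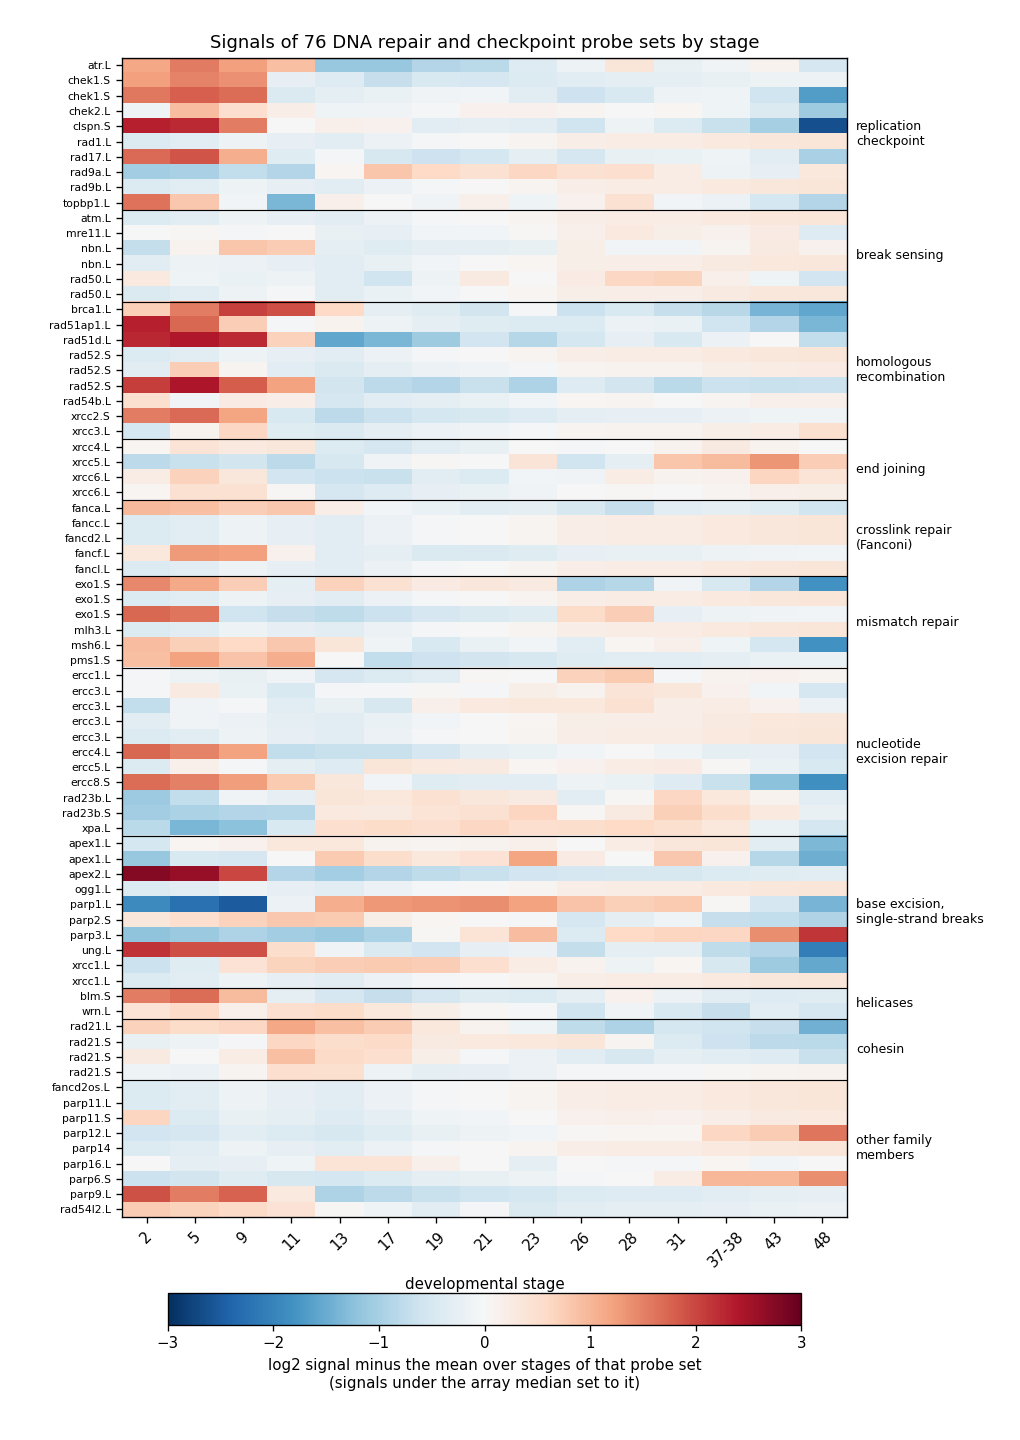
Log2 signal of each of the 76 probe sets (rows, grouped by role) at 15 stages (columns), minus the mean of that probe set over the stages, with signals under the array median set to it; red is high and blue is low. Checkpoint and recombination rows are mostly red at stages 2 to 9. The parp1.L row is blue at stages 2 to 9 (558.7 at stage 9) and red at stages 13 to 31 (6721 at stage 13). A gene with several probe sets has several rows. The array median rises from 107.3 at stage 2 to 183.3 at stage 48. Rows that never exceed it therefore show the course of that floor and not a rise of their own.

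Between stage 2 and stage 9, which spans the mid-blastula transition, the members moved in both directions. Of 76, 14 were higher at stage 9 (18.4%, beside 22.7% of all probe sets) and 19 were lower (25%, beside 17.9%). With a change of at least 2-fold, 4 were higher (beside 4.03% of all) and 3 lower (beside 2.20%). Against the poly-A controls, which moved the median log2 change of all probe sets by 0.03, 10 members were higher (beside 17.3%) and 10 lower (beside 8.89%). The median log2 change was 0.01 for the members and 0.05 for all probe sets, and 3 of the calls concerned probe sets under the array median at both stages. Among probe sets with 1 symbol, 25.7% were higher and 20.6% lower as deposited, and with at least 2-fold 4.96% and 2.63%.

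Between stage 9 and stage 13, from blastula to early neurula, falls outnumbered rises. At stage 13, 35 members were lower (46.1%, beside 35.1% of all probe sets) and 15 were higher (19.7%, beside 29.9%). With at least 2-fold, 17 were lower (22.4%, beside 16.0%) and 4 higher (5.26%, beside 11.0%). The median log2 change was -0.39, against -0.12 for all probe sets, and 7 calls were of probe sets dim at both stages. Among probe sets with 1 symbol, 38.7% were lower and 32.4% higher, and with at least 2-fold 18.5% and 12.9%. Homologous recombination and the checkpoint each held 5 of the 17 falls of at least 2-fold. At any size, 8 of 9 and 7 of 10 of their probe sets were lower. In base excision 6 of 10 were higher, but 2 of those calls were dim at both stages (ogg1.L and parp3.L) and 2 were of apex1.L. The brighter apex1.L probe set turned with quantile normalization (log2 change 0.20 as deposited and -0.19 after it). Against the poly-A controls that probe set and the brighter one of xrcc1.L were not called (log2 changes 0.21 and 0.31, adjusted p 0.28 and 0.16). As deposited their log2 changes were 0.20 and 0.30, so these calls were lost with nearly unchanged estimates. Of the maternal egg markers btg4, cpeb1, zp4, h1-8 and mos, 3 of 5 were above the array median at stage 13 and 5 of 5 at stage 9, with a summed signal of 1800.3 at stage 13 and 19639.6 at stage 9. Their part in the result was not tested.

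From stage 13 to stage 31, in the neurula and tailbud, the members showed few large changes. At stage 31, 23 were higher (beside 34.2% of all probe sets) and 19 lower (beside 26.9%). With at least 2-fold, 3 were higher (beside 13.1%) and 3 lower (beside 7.96%). The median log2 change was 0.04, against 0.11 for all, and 10 calls were of probe sets dim at both stages. Among probe sets with 1 symbol, 37.0% were higher and 31.5% lower, and with at least 2-fold 15.4% and 10.3%. This interval depends on the scaling: against the poly-A controls 58 members were higher (76.3%, beside 63.7% of all probe sets) and 0 lower (beside 4.96%).

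Between stage 31 and stage 48 the members fell again. At stage 48, 42 were lower (55.3%, beside 29.9% of all probe sets) and 8 were higher (beside 25.1%). With at least 2-fold, 14 were lower (18.4%, beside 9.26%) and 2 higher (2.63%, beside 8.47%). The median log2 change was -0.57, against 0.02 for all, and 13 calls were of probe sets dim at both stages. Among probe sets with 1 symbol, 37.5% were lower and 26.2% higher, and with at least 2-fold 13.5% and 9.70%. Scaled to the poly-A controls, 24 members were lower (31.6%, beside 15.8% of all probe sets) and 14 higher (18.4%, beside 33.5%). The embryos were whole, so fewer cells that carry a transcript and less of it per cell cannot be told apart. Over the same interval the summed signal of 6 proliferation markers (pcna, mki67, ccnb1, ccna2, cdk1, top2a) was 6078.3 at stage 48 and 16577.8 at stage 31 (5 of 6 above the array median at both), that of 5 muscle markers was 115537.5 at stage 48 and 86713.5 at stage 31 (5 of 5 at both), and that of 4 blood markers was 19532.5 at stage 48 and 1001.1 at stage 31 (1 of 4 at both). The summed signal of 2 epidermis markers (krt12.4, krt70) was 3736.6 at stage 48 and 32206.1 at stage 31 (2 of 2 at both). For 5 neural markers (sox2, sox3, nrp1, elavl3, tubb2b) it was 6516.0 and 9435.8 (4 of 5 at both). For 2 liver and plasma markers (fetub, ttr) it was 19882.8 and 9389.2, and for the lens marker cryba1 6541.7 and 939.1. The part of these markers in the result was not tested.

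Across the whole course, from stage 2 to stage 48, 43 members were lower at stage 48 (56.6%, beside 36.0% of all probe sets) and 16 higher (21.1%, beside 42.3%). With at least 2-fold, 24 were lower (31.6%, beside 18.1%) and 6 higher (7.89%, beside 21.0%). The median log2 change was -0.85, against 0.28 for all. Among probe sets with 1 symbol, 41.7% were lower and 41.7% higher, and with at least 2-fold 23.5% and 23.2%. This comparison shares its stages with the others and is no separate evidence. Against the poly-A controls 21 members were lower (27.6%, beside 12% of all) and 40 higher (52.6%, beside 68.1%), so the direction of many single members between these stages depends on the scaling.

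The replication machinery was a list of 56 probe sets of 41 genes (mcm, orc, gins, pol and others) with no shared member. It gave a larger share of falls than the members in every interval. Its share of rises was also larger at stage 9 against 2 (37.5%, members 18.4%) and at 31 against 13 (42.9%, members 30.3%). Of 56, 52 were lower at stage 48 than at stage 31, and 0 higher, in limma's test (beside 29.9% and 25.1% of all probe sets). At stage 13 against stage 9, 41 of 56 were lower and 4 higher (beside 35.1% and 29.9%). At stage 31 against stage 13, rises outnumbered falls, with 24 higher and 20 lower (beside 34.2% and 26.9%). At stage 9 against stage 2, 21 were higher and 17 lower (beside 22.7% and 17.9%). The lists also differed in brightness: 54 of 56 and 61 of 76 probe sets were above the array median on both arrays of at least 1 stage. The difference between the lists was not tested.

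**Figure D3:**
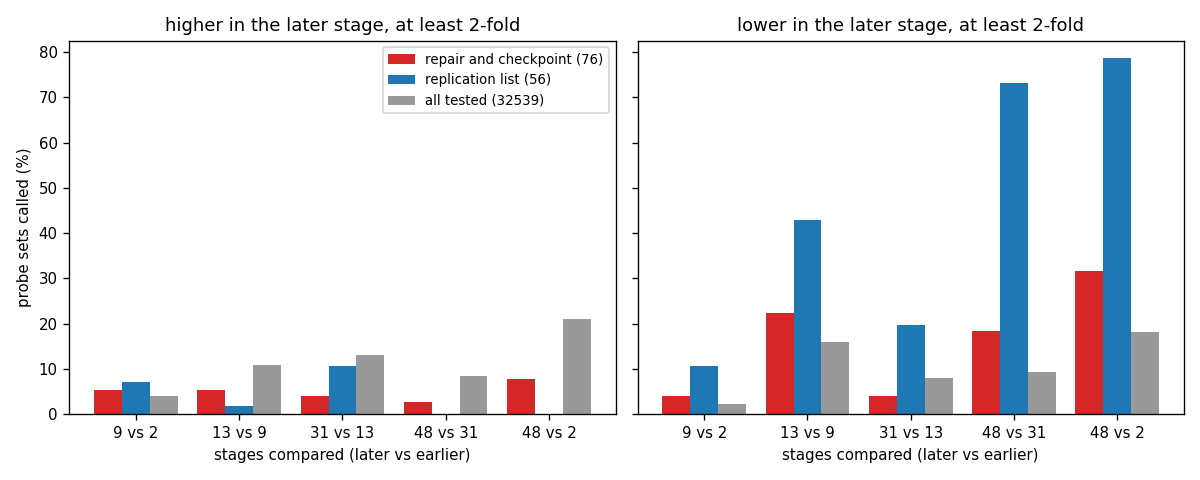
Percentage of probe sets called with at least a 2-fold change (vertical axis), higher (left) or lower (right) in the later stage, in 5 comparisons of stages (horizontal axis), for the 76 repair and checkpoint probe sets, 56 probe sets of the replication list and all 32539 tested. At stage 48 against stage 2 the repair and checkpoint bar is at 31.6% lower and 7.89% higher.

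Of 10 replication checkpoint probe sets, 7 were lower and 1 higher at stage 13 than at stage 9 (beside 35.1% and 29.9% of all probe sets), while 2 were higher and 1 lower at stage 31 than at stage 13 (beside 34.2% and 26.9%). Claspin (clspn.S), the adaptor through which Atr activates Chk1, had the largest fall of a member above the array median at both stages. Its signal was 7258 and 7663 at stage 2, 4184 and 4327 at stage 9, 1696 and 1561 at stage 13, 1100 and 1106 at stage 31, and 229 and 245 at stage 48. The arrays of these stages did not overlap. It was 31.5-fold lower at stage 48 than at stage 2 (log2 change -4.98, SE 0.07, adjusted p 8.3e-23), and 4.65-fold lower at stage 48 than at stage 31 (adjusted p 4.7e-17). Both falls kept their sign against the poly-A controls (-3.30 and -1.79), while that of stage 31 against stage 13 turned (-0.56 as deposited, 0.63 against the controls).

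The kinase atr.L was bright before gastrulation and dropped to about the array median in the neurula. It measured 137 and 111 at stage 13, against 685 and 611 at stage 9, at least 5.16-fold lower (adjusted p 9.5e-14). Both arrays of stage 13 were far under both arrays of stage 9. At stage 31 it was higher again, with 235 and 238, at least 1.89-fold above stage 13 (adjusted p 4.5e-07). Its target kinase chek1.S had 2 probe sets, which moved alike. The brighter one measured 482 and 490 at stage 13, against 1999 and 1746 at stage 9, 3.85-fold lower (adjusted p 6.1e-14), and the dimmer one was 3.35-fold lower (adjusted p 2.5e-09). Most of that drop was present at stage 11, where the brighter probe set read 433 and 424. The clamp loader rad17.L was 2.16-fold lower at stage 13 than at stage 9, with 348 and 357 against 783 and 741 (adjusted p 5.8e-10). The kinase chek2.L, which acts downstream of Atm at breaks, was higher at stage 9 than at stage 2 by 1.55-fold, with 551 and 545 against 365 and 341 (adjusted p 3.9e-06), and at least 2.17-fold lower at stage 48 than at stage 31 (adjusted p 8.8e-13).

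The Atr activator topbp1.L followed another course. It had 949 and 1129 at stage 2, 575 and 608 at stage 5, 313 and 323 at stage 9, 116 and 140 at stage 11, and 371 and 379 at stage 13. The signal was thus near the array median in the gastrula, and above it before and from stage 13 to stage 43. At stage 48 the signal had a mean of 149.9, under the array median of 183.3. That was lower than at stage 31 (log2 change -1.08, adjusted p 1.3e-06), also against the poly-A controls (-0.64, adjusted p 0.0050). It was 3.25-fold lower at stage 9 than at stage 2 (log2 change -1.70, SE 0.14, adjusted p 3.2e-09). The clamp subunit rad9a.L was the checkpoint member that was higher at stage 13 than at stage 9, with 257 and 210 against 131 and 136 (1.74-fold, adjusted p 2.2e-05). At stage 48 it measured 279 and 277, at least 2.55-fold above stage 2 (adjusted p 4.3e-09). Its partner in the clamp, rad1.L, was under the array median at all stages, as was the related rad9b.L.

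**Figure D4:**
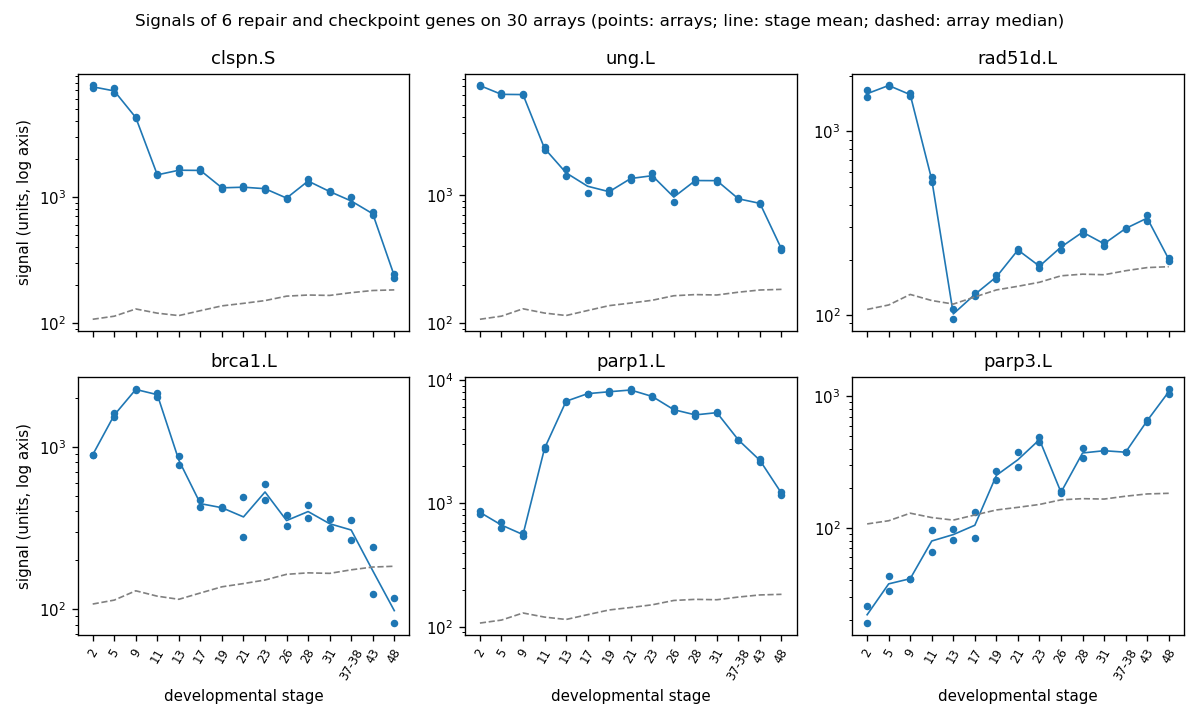
Signals (vertical axis, log scale, arbitrary units) of clspn.S, ung.L, rad51d.L, brca1.L, parp1.L and parp3.L on each of the 30 arrays by stage (horizontal axis); points are arrays, solid lines join the geometric means of the 2 arrays, and dashed lines are the array medians. clspn.S and ung.L end at 237.1 and 378.4 at stage 48, brca1.L peaks at 2252 at stage 9, and parp3.L reaches 1084 at stage 48.

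Of the MRN complex, which senses double-strand breaks, mre11.L had stage means between 363.4 at stage 48 and 582.6 at stage 28. It was called higher at stage 31 than at stage 13 (log2 change 0.38, adjusted p 0.0018), with the sign turned by median centring, and lower at stage 48 than at stage 31 (-0.56, adjusted p 3.6e-05), a call lost against the poly-A controls (adjusted p 0.56). Between stages 48 and 2 the log2 change was -0.42 as deposited and 1.26 against those controls. The Nibrin gene nbn.L had a short maximum around the blastula in its brighter probe set: 103 and 97.1 at stage 2, 329 and 297 at stage 9, 308 and 289 at stage 11, and 142 and 150 at stage 13. It was at least 2.91-fold higher at stage 9 than at stage 2 (adjusted p 2.0e-07) and 2.14-fold lower at stage 13 than at stage 9 (adjusted p 1.6e-05). The dimmer nbn.L probe set was called in neither comparison. The brighter probe set of the third subunit, rad50.L, measured 507 and 523 at stage 31, against 247 and 277 at stage 13 (1.97-fold higher, adjusted p 7.1e-05), and 219 and 215 at stage 48 (2.37-fold lower than at stage 31, adjusted p 4.4e-06). Both its arrays at stage 31 exceeded those of stages 13 and 48. The dimmer rad50.L probe set did not show the rise from stage 13 to stage 31 (log2 change -0.12, adjusted p 0.70). It was lower at stage 48 than at stage 31 (-1.13, adjusted p 4.3e-04). The kinase gene atm.L read 1.41 to 31.2 over the 30 arrays and supports no statement.

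Homologous recombination genes fell between blastula and neurula: at stage 13, 8 of 9 probe sets were lower than at stage 9 and 0 higher in limma's test (beside 35.1% and 29.9% of all probe sets), with a median log2 change of -1.65. The recombination gene rad51d.L had the largest fall among them, with 108 and 94.8 at stage 13, against 1618 and 1558 at stage 9, at least 13.8-fold lower (log2 change -3.97, SE 0.09, adjusted p 2.1e-19). At stage 11 it read 563 and 530, between the levels of the stages on either side. It was higher again at stage 31, with 239 and 250, at least 2.13-fold above stage 13 (adjusted p 2.7e-11). The recombination genes xrcc2.S and xrcc3.L were at least 3.87-fold and at least 2.07-fold lower at stage 13 than at stage 9 (adjusted p 5.1e-11 and 6.2e-12). The signal of xrcc2.S stayed at 66.1 to 153 on all arrays from stage 13 on, while xrcc3.L read 213 and 222 at stage 48, against 126 and 104 at stage 31 (at least 1.31-fold higher, adjusted p 3.6e-04).

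The mediator rad52.S had 3 probe sets. The brightest read 200 and 192 at stage 13, against 1066 and 957 at stage 9, 5.15-fold lower (adjusted p 2.6e-10). A dimmer one was also lower, by at least 1.44-fold, and the dimmest was under the array median throughout. At stage 48, 1 of the 3 was called higher and 1 lower than at stage 31, all of them under the array median at both stages, and the lower call was lost against the poly-A controls (adjusted p 0.56). The recombination gene rad51ap1.L fell early: 2278 and 2491 at stage 2, 1514 and 1598 at stage 5, 763 and 816 at stage 9, and 403 and 504 at stage 11. It was 3.02-fold lower at stage 9 than at stage 2 (adjusted p 8.9e-10), at least 2.26-fold lower at stage 48 than at stage 31 (adjusted p 2.9e-11), and at least 13.0-fold lower at stage 48 than at stage 2 (adjusted p 3.1e-18).

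The breast cancer susceptibility gene homolog brca1.L first rose. It measured 2263 and 2241 at stage 9, against 889 and 893 at stage 2, 2.53-fold higher (log2 change 1.34, SE 0.26, adjusted p 3.8e-04). At stage 13 it read 881 and 772, 2.73-fold under stage 9 (adjusted p 7.4e-05), and the stages that follow were lower still. It was 2.46-fold lower at stage 31 than at stage 13 as deposited (adjusted p 2.7e-04), a change that was not called against the poly-A controls (log2 change -0.10, adjusted p 0.72). Its replicates differed more than those of most members at some stages, with 492 and 277 at stage 21 and 241 and 123 at stage 43. At stage 48 it read 117 and 81.9, under the array median, at least 4.86-fold lower than at stage 2 (adjusted p 1.4e-09).

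Of 4 end joining probe sets, 3 were lower and 0 higher in limma's test at stage 13 than at stage 9 (beside 35.1% and 29.9% of all probe sets). The 3 were xrcc4.L and both probe sets of xrcc6.L, while xrcc5.L was not called (log2 change 0.06, adjusted p 0.73). At stage 31, 3 of the 4 were higher than at stage 13 (beside 34.2%). The fourth, the dimmer xrcc6.L probe set, was not called (log2 change 0.12, adjusted p 0.74). The sign of xrcc4.L in that rise turned with median centring. The Ku subunits Ku80 (xrcc5.L) and Ku70 (xrcc6.L) bind broken ends, and xrcc4.L belongs to the ligase complex that seals them. The signal of xrcc5.L was 514 and 501 at stage 31, against 174 and 238 at stage 13, 2.50-fold higher (adjusted p 4.8e-08), and 467 and 483 at stage 48, 2.85-fold above the 160 and 173 of stage 2 (adjusted p 2.8e-09). It was the end joining member with a rise of at least 2-fold, and its direction was the same against the poly-A controls. The brighter xrcc6.L probe set was 1.98-fold lower at stage 13 than at stage 9, with 338 and 370 against 705 and 698 (adjusted p 8.0e-09), and 1.68-fold higher at stage 31 than at stage 13 (adjusted p 6.6e-07). At stage 48 it was 1.23-fold higher than at stage 31 (adjusted p 0.011). That call was lost when the second array of stage 31 was left out (adjusted p 0.12), or the second of stage 48 (adjusted p 0.083), and with median centring (adjusted p 0.21). The gene xrcc4.L was 1.63-fold lower at stage 13 than at stage 9 (adjusted p 9.4e-05).

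The Fanconi genes, whose products repair crosslinks between the DNA strands, were mostly dim. Of 5 probe sets, fanca.L and fancf.L exceeded the array median in at least 1 stage. The signal of fancf.L was 447 and 461 at stage 9, against 237 and 245 at stage 2 (1.88-fold higher, adjusted p 2.2e-05). It was 145 and 161 at stage 13, 2.98-fold under stage 9 (adjusted p 2.7e-09). Both arrays of stage 9 lay above those of stages 2 and 13. The signal of fanca.L, a subunit of the core complex, was 540 and 549 at stage 2, 469 and 455 at stage 9, 299 and 336 at stage 13, and 150 and 141 at stage 48, at least 2.97-fold lower at stage 48 than at stage 2 (adjusted p 2.4e-11). That difference was not called against the poly-A controls (log2 change -0.23, adjusted p 0.30).

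In mismatch repair the mispair-binding subunit msh6.L was bright until late and dropped in the tadpole. It had 2546 and 2473 at stage 2, 2064 and 1971 at stage 9, 1723 and 1665 at stage 13, 1516 and 1446 at stage 31, and 357 and 401 at stage 48. It was 3.91-fold lower at stage 48 than at stage 31 (log2 change -1.97, SE 0.07, adjusted p 1.8e-15). The small fall of stage 31 against stage 13 turned against the poly-A controls (log2 change -0.19 as deposited, 1.00 against the controls). The gene pms1.S, a MutL homolog, was 1.83-fold lower at stage 13 than at stage 9, with 195 and 222 against 384 and 378 (adjusted p 3.3e-05), and lay under the array median from stage 19 on. The nuclease exo1.S, which resects DNA in mismatch repair and at breaks, had 3 probe sets that did not follow the same course. The brightest was at 74.3 and 103 at stage 48, against 1759 and 1792 at stage 2, at least 9.68-fold lower (adjusted p 5.1e-19), and it was at least 3.31-fold lower at stage 48 than at stage 31 (adjusted p 3.9e-15). The second read 16.6 and 15.3 at stage 9, against 553 and 741 at stage 2, at least 4.95-fold lower (adjusted p 2.9e-07), when the brightest was 1.64-fold lower (adjusted p 1.6e-05). The second was above the array median only at stages 2, 5, 26 and 28, with means of 286 and 328 at stages 26 and 28, which stood apart. For this probe set a difference between stages and one between pools cannot be told apart. The third was dim at all stages.

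Of 11 nucleotide excision repair probe sets, 3 were higher and 3 lower at stage 13 than at stage 9. These shares (27.3% each) were near those of all probe sets (29.9% and 35.1%). Among them the recognition factors rad23b.S and xpa.L rose. The structure-specific nuclease subunit ercc4.L (Xpf) and ercc8.S (Csa, of transcription-coupled repair) fell. The signal of xpa.L was 438 and 430 at stage 13, against 120 and 115 at stage 9, at least 3.35-fold higher (log2 change 1.88, SE 0.11, adjusted p 2.8e-12). It stayed between 367 and 479 on every array from stage 13 to stage 37-38 and was 225 and 197 at stage 48, 2.03-fold under stage 31 (adjusted p 9.0e-08). The signal of rad23b.S was 1582 and 1865 at stage 13, against 757 and 756 at stage 9 (2.27-fold higher, adjusted p 1.9e-08). The nuclease subunit ercc4.L read 350 and 377 at stage 13, against 1337 and 1349 at stage 9, 3.70-fold lower (adjusted p 1.6e-13), with 332 and 360 already at stage 11. The partner of Xpf, ercc1.L, was called in none of the 5 comparisons.

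The signal of ercc8.S fell in all 4 intervals as deposited, though that of stage 31 against stage 13 turned against the poly-A controls (log2 change 0.46), with 2130 and 2130 at stage 2, 1540 and 1623 at stage 9, 869 and 809 at stage 13, 481 and 530 at stage 31, and 190 and 161 at stage 48. It was at least 11.4-fold lower at stage 48 than at stage 2 (adjusted p 1.3e-18), also against the poly-A controls (log2 change -1.93). The nuclease ercc5.L (Xpg) had stage means between 366.0 at stage 48 and 645.5 at stage 17. Of 4 probe sets of the helicase ercc3.L (Xpb), 2 were bright. At stage 48 against stage 2 one bright probe set was called lower (1.35-fold, adjusted p 0.0024) and the other higher (1.49-fold, adjusted p 2.9e-05), but both were called higher against the poly-A controls (log2 changes 1.24 and 2.24, adjusted p 3.4e-07 and 1.7e-11), and with median centring the second turned to -0.20. No direction is therefore given for the gene. Of 11 nucleotide excision probe sets, 9 were lower and 0 higher in limma's test at stage 48 than at stage 31 (beside 29.9% and 25.1% of all probe sets). Of the 9, 2 were lower by at least 2-fold (18.2% of the 11, beside 9.26% of all). The 9 include 3 probe sets of ercc3.L and 2 of rad23b. Against the poly-A controls 4 of the 11 were called lower (rad23b.S, rad23b.L, ercc8.S and xpa.L), to be read beside the share of all probe sets given above for that scaling.

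Base excision and single-strand break repair held the largest rise of a member above the array median at both stages. Poly(ADP-ribose) polymerase 1 (parp1.L), which binds strand breaks and recruits repair factors, measured 6773 and 6669 at stage 13, against 575 and 543 at stage 9, 12-fold higher (log2 change 3.59, SE 0.05, adjusted p 7.2e-22). It had 2740 and 2839 at stage 11, reached 8430 and 8150 at stage 21, and fell to 1175 and 1242 at stage 48, 4.50-fold under the 5482 and 5386 of stage 31 (adjusted p 2.2e-18). Its values at stages 11 to 31 lay above all others of the series for this gene except those of stage 37-38, which exceeded those of stage 11. Between stages 48 and 2 its sign depended on the scaling: the log2 change was 0.51 as deposited and -0.26 with arrays centred on their medians. At stage 31 against stage 13 the log2 change of parp1.L was -0.31 as deposited and 0.89 against the poly-A controls. The related parp2.S differed in course, with 1758 and 1655 at stage 13, against 1593 and 1584 at stage 9 (not called), and 513 and 542 at stage 48, 1.70-fold under stage 31 (adjusted p 8.4e-09), a call lost against the poly-A controls (adjusted p 0.084).

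The mono-ADP-ribosyl transferase parp3.L rose late. It read 18.9 and 25.3 at stage 2, 98.4 and 80.5 at stage 13, 390 and 383 at stage 31, and 1035 and 1136 at stage 48. It was at least 3.37-fold higher at stage 31 than at stage 13 (adjusted p 1.6e-08), 2.81-fold higher at stage 48 than at stage 31 (adjusted p 3.3e-06) and at least 10.1-fold higher at stage 48 than at stage 2 (adjusted p 4.1e-16). These rises were also called against the poly-A controls. The gene was above the array median on both arrays from stage 19 on.

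Uracil-DNA glycosylase (ung.L), which removes uracil from DNA, fell mainly before the neurula and again in the tadpole, with 7048 and 7117 at stage 2, 6041 and 6013 at stage 9, 1576 and 1393 at stage 13, 1314 and 1262 at stage 31, and 386 and 370 at stage 48. It was 4.07-fold lower at stage 13 than at stage 9 (adjusted p 2.3e-14), 3.40-fold lower at stage 48 than at stage 31 (adjusted p 3.9e-13) and 18.7-fold lower at stage 48 than at stage 2 (adjusted p 4.2e-20). The endonuclease genes apex1.L and apex2.L, which cut DNA at sites that have lost a base, differed in course. The signal of apex2.L was 80.6 and 78.7 at stage 13, against 905 and 951 at stage 9, at least 8.09-fold lower (adjusted p 5.6e-13). The brighter apex1.L probe set was 1.56-fold higher at stage 9 than at stage 2, with 3630 and 3520 against 2264 and 2316 (adjusted p 3.6e-10). Its stage means stayed between 3262 and 4222 from stage 5 to stage 37-38, and it was 3.20-fold lower at stage 48 than at stage 31 (adjusted p 1.9e-17). The dimmer apex1.L probe set was not called at stage 9 against stage 2 (adjusted p 0.27). It did not stay level, with stage means of 550 at stage 9, 1346 at stage 13 and 1779 at stage 23. At stage 48 it was also lower than at stage 31 (log2 change -2.28, adjusted p 2.1e-04). The scaffold xrcc1.L was 2.13-fold higher at stage 9 than at stage 2 in its brighter probe set, with 1544 and 1717 against 746 and 783 (adjusted p 3.2e-10), and 3.02-fold lower at stage 48 than at stage 31 (adjusted p 2.0e-13).

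The RecQ helicases blm.S and wrn.L unwind recombination and replication intermediates. The signal of blm.S was 154 and 179 at stage 13, against 462 and 446 at stage 9, 2.73-fold lower (adjusted p 4.7e-09). That of wrn.L was 929 and 975 at stage 13, against 762 and 679 at stage 9, 1.32-fold higher (log2 change 0.40, adjusted p 2.6e-04). Against the poly-A controls the log2 change was 0.42 and the adjusted p 0.063. At stage 31 wrn.L read 484 and 457, 2.02-fold under stage 13 as deposited (adjusted p 9.5e-10), but the sign turned against the poly-A controls (log2 change 0.18, adjusted p 0.41).

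The cohesin subunit rad21, which holds sister chromatids together and carries a rad name, was measured from both copies. The signal of rad21.L was 3981 and 4057 at stage 13, 1509 and 1496 at stage 31 and 807 and 772 at stage 48. The brightest rad21.S probe set had 3482 and 3280 at stage 13, 1861 and 1905 at stage 31 and 1420 and 1450 at stage 48. Its log2 change turned against the poly-A controls at stage 31 against 13 (-0.84 as deposited, 0.35 against the controls). It also turned at stage 48 against 31 (-0.39 and 0.04). The log2 difference of L minus S within an array was highest at stage 5 (0.46) and lowest at stage 48 (-0.86) and changed over the stages (adjusted p 3.2e-11, F test over all L and S pairs). At stage 48 against stage 2, rad21.L was lower under both scalings (log2 change -2.14 as deposited and -0.47 against the poly-A controls). The brightest rad21.S probe set was lower as deposited (-0.93) and higher against the controls (0.74). The dimmer rad21.S probe sets gave -0.60 and -1.46 as deposited. Against the controls they gave 1.07 and 0.21, the second not called (adjusted p 0.55). At stage 31 against 13 their changes were -0.93 and -1.32 as deposited, beside -1.42 for rad21.L. The L and S test used the brightest S probe set only, and the S course differed between probe sets. The other pair tested, rad23b, had a difference between -2.95 at stage 23 and -1.78 at stage 9 (adjusted p 4.1e-04). Of all 1721 L and S pairs tested, 95.8% were called, so 2 of 2 is near the background. The levels of L and S probe sets are not comparable as such, because their probes differ.

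The remaining members carry a family name without a settled place in these routes. Among the poly(ADP-ribose) polymerase family, parp9.L was at least 6.47-fold lower at stage 13 than at stage 9, with a stage mean of 46.0 against a level of 706 and 780 on the arrays of stage 9 (adjusted p 2.4e-07). The genes parp12.L and parp6.S rose late. The signal of parp12.L was 483 and 490 at stage 48, against 130 and 99.1 at stage 31, at least 2.94-fold higher (adjusted p 4.4e-04), and that of parp6.S was 446 and 430 at stage 48, against 4.54 and 10.8 at stage 2, at least 4.09-fold higher (adjusted p 8.0e-08). Both were under the array median up to stage 28. The gene parp16.L was 1.58-fold higher at stage 13 than at stage 9 (adjusted p 5.6e-07). The signal of parp11.S was 112 and 129 at stage 9, against 254 and 215 at stage 2, at least 1.81-fold lower (adjusted p 0.021). That call was lost when the first array of stage 2 was left out (adjusted p 0.12) or the first of stage 9 (adjusted p 0.11), and against the poly-A controls (adjusted p 0.069).

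Repair genes that the name rule leaves out were counted from 4 further lists. Of 33 damage response probe sets (such as gadd45, h2ax, palb2 and atrip), 11 were higher and 4 lower at stage 9 than at stage 2 (beside 22.7% and 17.9% of all probe sets), and 8 were higher and 19 lower at stage 13 than at stage 9 (beside 29.9% and 35.1%). The stress gene gadd45a.S, at 1905 and 1780 at stage 9 against 414 and 400 at stage 2, was 4.52-fold higher (adjusted p 1.6e-13), and 11.7-fold lower at stage 31 than at stage 13 (adjusted p 3.6e-17). The partner of Brca2, palb2.L, was 7.80-fold lower at stage 13 than at stage 9, with 140 and 139 against 1096 and 1079 (adjusted p 6.7e-17). The partner of Atr, atrip.L, was 4.51-fold lower between the same stages, with 291 and 263 against 1210 and 1288 (adjusted p 1.2e-14). The histone variant gene h2ax.S rose in both intervals, to 494 and 613 at stage 9 against 4.49 and 9.90 at stage 2, and to 3066 and 2617 at stage 13 (5.14-fold above stage 9, adjusted p 6.8e-04).

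Of 24 probe sets of repair polymerases, ligases and nucleases, 4 were higher and 17 lower at stage 13 than at stage 9, beside 29.9% and 35.1% of all probe sets. The ligase of end joining, lig4.L, read 208 and 215 at stage 13, against 1413 and 1478 at stage 9 (6.83-fold lower, adjusted p 2.2e-14), and its cofactor nhej1.S was at least 6.66-fold lower (adjusted p 1.2e-14). Of 23 excision and helicase factors, 5 were higher and 16 lower between these stages. At stage 48, 21 of 23 were lower and 0 higher than at stage 31 in limma's test, beside 29.9% and 25.1% of all probe sets. The single-strand binding subunit rpa2.L had 462 and 498 at stage 48, against 3219 and 3228 at stage 31 (6.72-fold lower, adjusted p 2.5e-18). Of 7 glycosylase and reversal probe sets, 4 were higher and 1 lower at stage 13 than at stage 9 (beside 29.9% and 35.1%). The glycosylase smug1.L, which also removes uracil, measured 807 and 767 at stage 13, against 92.8 and 85.2 at stage 9, at least 6.08-fold higher (adjusted p 2.0e-14), in the interval in which ung.L was 4.07-fold lower. At stage 48 all 7 were lower than at stage 31 (beside 29.9%), smug1.L by 2.45-fold (adjusted p 7.4e-08). The 7 probe sets belong to 5 genes, and 2 of these calls were of probe sets dim at both stages.

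Stages 26 and 28, which stood apart, were also compared with stages 23 and 31, a comparison chosen after the data were seen. In limma's test 13 of 76 members were higher at stages 26 and 28 (17.1%, beside 13.4% of all probe sets) and 17 lower (22.4%, beside 9.63%). Both bright exo1.S probe sets took part, in opposite directions. The second one measured 288, 283, 324 and 332 at stages 26 and 28, against 15.9, 15.0, 9.80 and 12.7 at stages 23 and 31, and was also bright at stages 2 and 5 (553 to 741). The brightest one measured 329, 352, 355 and 363 at stages 26 and 28, against 803, 759, 595 and 619 at stages 23 and 31, 1.97-fold lower (adjusted p 1.4e-08). The 4 arrays of one pair of stages did not overlap those of the other in either probe set.

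The Ku80 gene xrcc5.L was 2.06-fold lower at stages 26 and 28 than at stages 23 and 31, with 175, 204, 256 and 217 against 369, 373, 514 and 501 (adjusted p 1.8e-07). The Xpf partner ercc1.L was 1.69-fold higher, with 271, 291, 295 and 302 against 188, 159, 148 and 173 (adjusted p 1.7e-04). The rad21.L probe set was 1.43-fold lower (adjusted p 3.7e-09). The rad21.S probe sets did not move alike. The brightest was lower (log2 change -0.19, adjusted p 1.6e-04), another higher (0.27, adjusted p 0.0025), and the dimmest was not called (adjusted p 0.56).

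**Figure D5:**
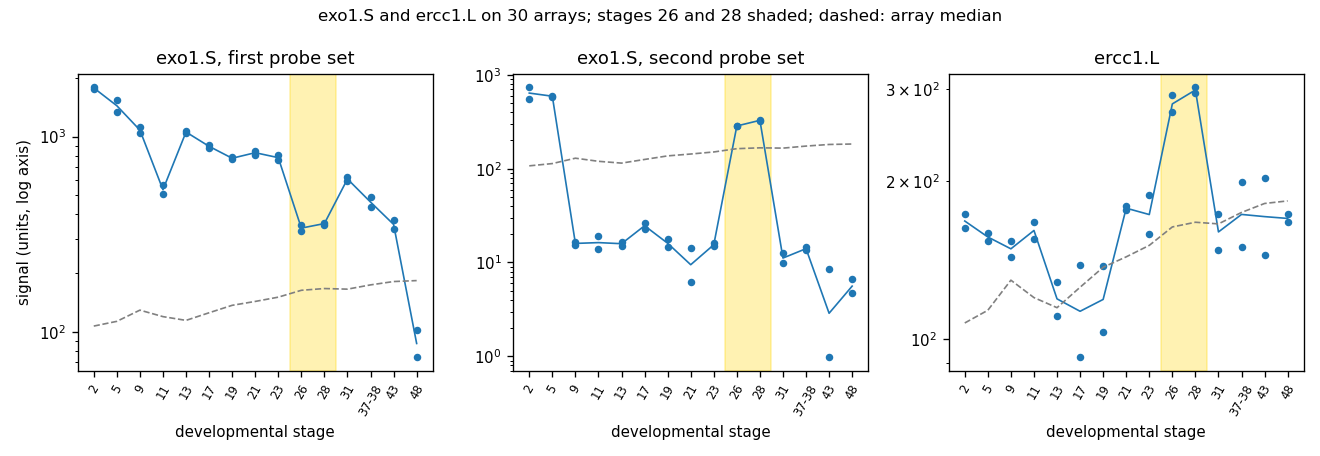
Signals (vertical axis, log scale, arbitrary units) of the brightest and the second exo1.S probe set and of ercc1.L on 30 arrays by stage (horizontal axis); points are arrays, solid lines stage means, dashed lines array medians, and stages 26 and 28 are shaded. The second exo1.S probe set reads 283 to 332 on the 4 shaded arrays and at most 16 on the arrays of stages 23 and 31.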

How the data were processed

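Per the labels, total RNA of pooled whole embryos was extracted with a lipid tissue kit and biotin-labelled in 1 cycle. The deposited values are signal intensities per probe set the authors computed with MAS5, as the submitters' processing notes state without a version. All 30 arrays have the same 2% trimmed mean, 500 units, so no further normalization was applied.

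Of 32635 probe sets, 96 controls were left out and 32539 tested, with no filter. Symbols came from the platform annotation: 15495 probe sets had 1, 279 several and 16765 none. All 76 members were found in RefSeq's gene table (v10.1) and 0 were renamed. Where a gene had several probe sets, the one with the highest mean stood for it unless stated. Members, roles and lists were chosen with earlier results of these data known.

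Log2 signals were fitted with limma 3.58.1 in R 4.3.3, 1 mean per stage over 30 arrays (15 residual degrees of freedom), with trend and robust moderation and Benjamini-Hochberg adjustment over all probe sets. L minus S differences were fitted alike. Named were, per comparison, up to 5 rises and 5 falls of largest fold among called members with separate replicates and the brighter stage above the array median, and any member under its role, whose examples were picked with values seen. The p-values measure the spread between pools, and 2 arrays per stage limit the precision. Alternatives were other scalings, filters, thresholds, moderation and left-out arrays. The fit was tested on simulated data. Figures were drawn with matplotlib 3.10.9. No sequences are shown.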

Additional observations from a re-analysis of the deposited data

How the results depend on the processing

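Against the poly-A controls, members were higher and lower in 58 and 0 cases at stage 31 against 13, 14 and 24 at stage 48 against 31, and 40 and 21 at stage 48 against 2. At stage 9 against 2, 10 were lower, and at stage 13 against 9, 9 were higher. The log2 changes of wrn.L (0.18), parp2.S (0.27), rad21.S (0.35) and exo1.S (0.40) at stage 31 against 13 turned positive. Quantile normalization gave 14 higher and 29 lower at stage 31 against 13, median centring 9 and 36, and median centring 7 higher at stage 48 against 2. At stage 31 against 13 the median log2 change was -0.22 for all probe sets and -0.28 for the members with quantile normalization. With median centring it was -0.42 and -0.50, and at stage 48 against 2 it was -0.49 and -1.62. Where no share over all probe sets is printed, such counts show how calls move with the scaling and are no result about the members. By construction the 2-fold threshold left fewer calls: 4 higher and 3 lower at stage 9 against 2, 4 and 17 at 13 against 9, 3 and 3 at 31 against 13, 2 and 14 at 48 against 31, and 6 and 24 at 48 against 2. Testing only probe sets above the array median in at least 1 stage left 5 higher at stage 48 against 31. Leaving out single arrays gave, for higher and lower, 12 to 13 and 14 to 16 (stage 9 against 2), 14 and 32 to 34 (13 against 9), 20 to 22 and 16 to 19 (31 against 13), 7 to 9 and 38 to 40 (48 against 31), and 12 to 16 and 42 to 44 (48 against 2), 70 to 72 members over all stages, and 2 pairs. Without stages 26 and 28, chosen after seeing the data, the counts over all stages (71) and of pairs (2) did not move. Other alternatives left the counts within 1.5 times. Replicate numbers did not pair the arrays, with correlations of -0.06 to 0.04 over 105 pairs of stages, and the replicate block left 35 members lower at stage 13 against 9 and changed no count by over 1.5 times. Signals under the array median limit what can be said of the 15 members that never exceed it.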
